A study of Mus musculus with 4 samples.

Results

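The genes described here encode heat shock proteins and the co-chaperones that work with them. They were taken by symbol from a table of 12661 genes: every gene whose symbol begins with Hspa, Hspb, Hspd, Hspe, Hsph, Hsp90a, Dnaja, Dnajb or Dnajc, or with Bag or Hsf followed by a digit. *Hspa5*, *Dnajb9*, *Dnajb11* and *Dnajc3*, chaperones of the endoplasmic reticulum, were left out. The rule used no measured value and gave 69 of the 12661 genes. By the place assigned to each product, 33 of the 69 were put in the cytosol or nucleus, 8 in mitochondria and 7 in the endoplasmic reticulum. The other 21 were put under another or a mixed place. These 21 include the 3 heat shock factors, so products of the cytosol or nucleus are not all in the first group. The set is wider than the cytosol.

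RNA was sequenced from the tissue outside the mouse femoral artery, mainly perivascular adipose tissue (PVAT), in 2 groups of mice with 2 libraries each. All animals were wild type C57BL/6 females (C57BL/6J in the study's methods), 11 weeks old by the labels, and all had been ovariectomized, the sham group as well as the injury group. In the injury group a wire was inserted into the femoral artery, and both groups were collected 48 h after the operation. Nothing in the labels says whether a library held 1 animal or several, so p-values measure the spread between these libraries. The deposited values are signed and log-like and run from -2.27 to 6.45. The base of the scale and the point that a value of 0 stands for are not given in the sources used here, and 0 is not the mean of these 4 libraries. Levels of different genes are therefore not ranked, and a difference is injury minus sham in deposited units, not a fold change. Sequencing depth is unknown. The median of all genes lay within 0.01 of 0 in each library, and the SD over all genes was 0.32 to 0.44. All 12 pan-adipocyte markers that were looked for and 10 of 13 brown adipocyte markers were in the table, whereas 8 of 15 skeletal muscle markers were not.

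Heat shock proteins hold, fold and release other proteins. HSP70 proteins bind exposed stretches of an unfolded chain in a cycle driven by ATP, J-domain proteins (DNAJA, DNAJB and DNAJC) deliver clients and stimulate the ATPase, and HSP110 and BAG proteins exchange the nucleotide. HSP90 acts late on kinases and receptors, small heat shock proteins hold unfolded chains without ATP, and HSP60 with its lid HSP10 forms a folding chamber inside mitochondria. When unfolded proteins pile up in the cytosol, the transcription factor HSF1 binds heat shock elements, which are inverted repeats of the unit GAA, and switches on a fixed set of cytosolic chaperones. Brown and beige adipocytes, rich in mitochondria, use the mitochondrial HSP60 and HSP70 systems to fold imported proteins.

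The promoters below belong to members that the results turn on: the pair with the highest family median, the gene with the lowest difference, and 3 cytosolic genes that HSF1 is best known to switch on. The windows were taken from RefSeq (GRCm38.p6), 250 bases before to 50 bases after a transcription start, and were matched without a mismatch to NCBIM37, the assembly of mm9, which gives the coordinates. Capitals mark pairs of heat shock units, searched on both strands as the letters GAANNTTC and TTCNNGAA, which may overlap each other. *Hspe1* is at chr1:55144742-55145041 on the plus strand, *Hspb1* at chr5:136363539-136363838 on the plus strand and *Hspb7* at chr4:140976444-140976743 on the plus strand. *Hspa1a* is at chr17:35109052-35109351 and *Hspa1b* at chr17:35096134-35096433, both on the minus strand.
Hspe1: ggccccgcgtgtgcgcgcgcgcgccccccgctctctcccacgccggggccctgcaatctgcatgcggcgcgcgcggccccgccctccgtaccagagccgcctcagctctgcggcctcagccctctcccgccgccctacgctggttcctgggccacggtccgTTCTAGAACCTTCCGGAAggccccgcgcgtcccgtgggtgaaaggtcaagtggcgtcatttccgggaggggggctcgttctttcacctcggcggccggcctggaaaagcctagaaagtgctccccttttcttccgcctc
Hspa1a: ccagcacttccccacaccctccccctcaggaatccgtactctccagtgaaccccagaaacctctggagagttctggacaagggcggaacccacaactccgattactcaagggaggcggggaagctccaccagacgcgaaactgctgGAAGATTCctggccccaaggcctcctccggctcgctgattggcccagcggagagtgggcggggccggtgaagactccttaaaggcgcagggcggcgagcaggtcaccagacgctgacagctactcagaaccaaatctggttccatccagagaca
Hspa1b: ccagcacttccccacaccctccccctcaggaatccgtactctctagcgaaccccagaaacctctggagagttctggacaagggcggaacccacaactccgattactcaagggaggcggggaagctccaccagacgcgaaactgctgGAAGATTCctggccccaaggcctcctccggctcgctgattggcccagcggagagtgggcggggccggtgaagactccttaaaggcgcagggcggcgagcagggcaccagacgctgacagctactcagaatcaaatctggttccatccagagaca
Hspb1: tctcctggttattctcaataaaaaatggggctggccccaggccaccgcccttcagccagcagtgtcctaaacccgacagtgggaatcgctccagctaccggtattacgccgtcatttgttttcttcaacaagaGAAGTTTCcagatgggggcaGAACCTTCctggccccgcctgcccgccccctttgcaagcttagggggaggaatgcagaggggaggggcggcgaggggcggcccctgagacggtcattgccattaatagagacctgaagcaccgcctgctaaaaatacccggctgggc
Hspb7: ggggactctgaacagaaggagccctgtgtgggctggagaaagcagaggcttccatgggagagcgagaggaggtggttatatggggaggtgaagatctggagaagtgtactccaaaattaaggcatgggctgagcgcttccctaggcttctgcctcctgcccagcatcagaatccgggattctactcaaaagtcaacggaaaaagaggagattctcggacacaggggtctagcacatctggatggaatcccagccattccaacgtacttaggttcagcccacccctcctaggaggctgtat

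*Hspd1* (HSP60, ENSMUSG00000025980.8, chromosome 1, 55134679 to 55145087, minus strand) and *Hspe1* (HSP10, ENSMUSG00000073676.4, 55144976 to 55148151, plus strand) face away from each other, and their annotated starts lie 111 bp apart. RefSeq gives 2 windows for *Hspd1*. The window at its outer start (chr1:55145038-55145337, minus strand), which is the start annotated on NCBIM37, shares only its edge with the window printed for *Hspe1* and has none of the letters searched. The other (chr1:55144727-55145026, minus strand) lies at a start further inside the gene and covers most of the *Hspe1* window on the opposite strand. The *Hspe1* window holds 3 overlapping pairs, which begin at -89, -84 and -79 from the start of *Hspe1*, and 2 runs of 3 units (GAANNTTCNNGAA or TTCNNGAANNTTC). The annotated genes overlap, and whether strand was used in counting is not given in the sources used here. *Hspa1a* and *Hspa1b* have 1 pair each, *Hspb1* has 2, and the letters are not in the window of *Hspb7*. The windows of *Hspa1a* and *Hspa1b* differed at 4 of 300 positions, and their coding sequences differed at 8 of 1926 positions (99.58% identical). Reads could have been shared between these 2 genes, and their values are uncertain for that reason.

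Windows were found for 54 of the 69 members. At least 1 pair was in the windows of 15 of these 54 genes (27.8%), against 17% of all 27025 genes in the RefSeq table and 14.2% of the 9586 tested genes with a window. A run of 3 units was in the windows of 4 of the 54 (7.41%; *Hspd1*, *Hspe1*, *Hsph1* and *Dnajb6*), against 0.662% of all genes. The runs of *Hspd1* and *Hspe1* are the same bases read on opposite strands, so 1 stretch was counted under both genes. For *Hspd1* the stretch lies only in the window further inside the gene. The window at the annotated start of *Hspd1* has no pair. The 15 genes with a pair also include both *Hspd1* and *Hspe1*, as well as the near copies *Hspa1a* and *Hspa1b*. A count with such genes merged was not made. Counted here as heat-inducible in the cytosol were 9 members (*Hspa1a*, *Hspa1b*, *Hspa8*, *Hsph1*, *Hspb1*, *Dnajb1*, *Dnaja1*, *Hsp90aa1* and *Bag3*). *Hspa8* is mainly constitutive, and the 9 were chosen with the values in view. A window was found for 7 of the 9, and 6 of these held a pair, with the near copies *Hspa1a* and *Hspa1b* counted as separate genes. A match describes the letters only, and binding of HSF1 was not measured.

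The 69 members were called about as often as genes at large. limma called 5 of them at a Benjamini-Hochberg adjusted p-value under 0.05 over all genes (7.25%), against 7.43% of the 12661 genes. *Hspd1*, *Hspe1* and *Hspa9* rose after injury (4.35% of members, against 3.76% of all genes), and *Hspb7* and *Hspa12a* fell (2.90%, against 3.67%). At an unadjusted p-value under 0.05 there were 22 members, and the share over all genes was 29.5%. Both injury libraries lay on one side of both sham libraries in 44 members (63.8%), against 61.9% of all genes. Of these, 22 were higher after injury (31.9%, against 31.6%) and 22 were lower (31.9%, against 30.3%). The median difference of the members was 0.002, beside 0.008 over all genes, and their differences ran from -1.52 to 0.86.

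With 2 libraries a group, the calls changed when 1 library was left out. A fit without 1 library also has fewer degrees of freedom, so a lost call cannot be tied to that library. Without sham replicate 1 or without sham replicate 2, limma called 0 of the 69 (7 and 16 at an unadjusted p-value under 0.05), and over all genes it then called 0 and 1. Without injury replicate 1 it called 1, *Hspb7* (1.45%, against 2.24% of all genes). Without injury replicate 2 it called 5, namely *Hspd1*, *Hspa12a*, *Hspb7*, *Hspa12b* and *Bag4* (7.25%, against 14.1% of all genes). An exact permutation test of 2 libraries against 2 cannot give a p-value below 0.333, so calls rest on the spread that limma borrows from all genes. The highest and the lowest family medians were those of HSP60 with HSP10 (0.78) and of the small heat shock proteins (-0.88), and the 23 DNAJC genes had a median of -0.01.

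**Figure D1:**
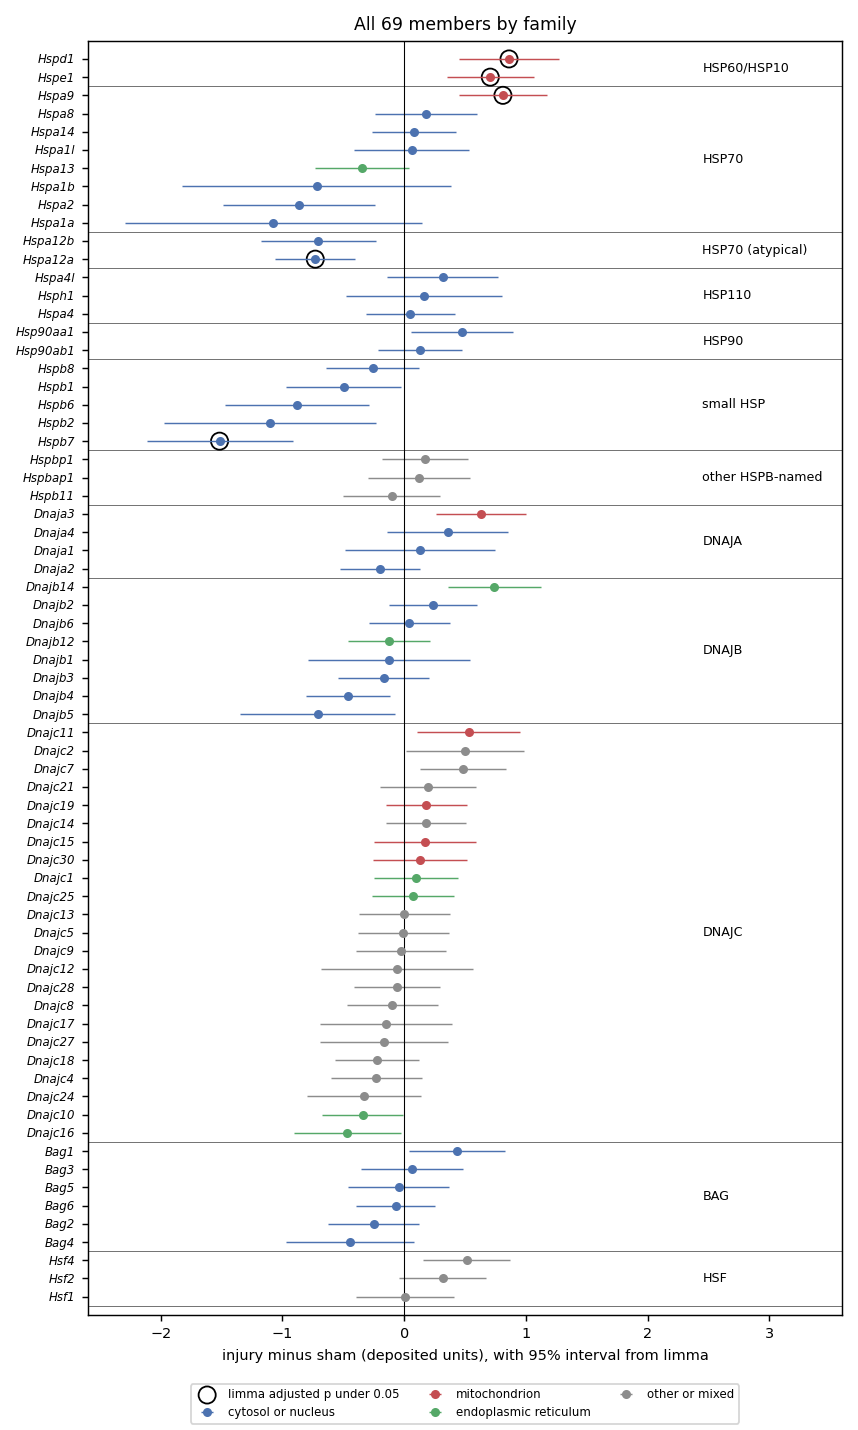
The horizontal axis is injury minus sham in deposited units for each of the 69 genes, grouped by family, with the 95% interval from limma as a bar and colour for the place of the protein in the cell. The 5 circled genes have an adjusted p-value under 0.05, and the members placed in mitochondria lie to the right of 0 in each family that holds them.

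The mitochondrial chaperones stood at the upper end. *Hspd1*, which encodes the HSP60 chamber, measured -0.32 and -0.01 in the sham libraries and 0.76 and 0.64 in the injury libraries. Both injury libraries were above both sham libraries, and the difference was 0.86 (SE 0.17, limma adjusted p = 0.0442). *Hspe1*, its HSP10 lid, measured -0.39 and -0.21 in sham and 0.44 and 0.37 after injury. That difference was 0.71 (SE 0.14, limma adjusted p = 0.0481), and as with HSP60 the groups did not overlap. *Hspa9*, the mitochondrial HSP70 (mortalin) that pulls chains in through the inner membrane, measured -0.18 and -0.01 in sham and 0.66 and 0.77 after injury. Its difference was 0.81 (SE 0.14, limma adjusted p = 0.0383). Over the removal of each library in turn the differences stayed between 0.71 and 1.02 for *Hspd1*, between 0.62 and 0.80 for *Hspe1* and between 0.72 and 0.90 for *Hspa9*.

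*Dnaja3*, the J-domain partner of mitochondrial HSP70, measured 0.01 and 0.22 in sham and 0.78 and 0.70 after injury, a difference of 0.63 (SE 0.15) that did not pass the threshold (limma adjusted p = 0.0616). The other 4 members placed in mitochondria were *Dnajc11*, *Dnajc15*, *Dnajc19* and *Dnajc30*, with differences from 0.13 to 0.53 and none called. All 8 members placed in mitochondria had a higher mean after injury, 6 without overlap of the groups (75%, against 31.6% of all genes higher without overlap), and their median difference was 0.58. The 33 members placed in the cytosol or nucleus had a median of -0.13, with 14 means higher and 19 lower. The 21 under another or a mixed place, heat shock factors included, had a median of -0.01, with 10 means higher and 11 lower. The 7 of the endoplasmic reticulum had a median of -0.12. The places were assigned with the values known, and the contrast between them is a description that depends on the assignment. *Dnajc4* (-0.23, lower without overlap) and *Dnajc28* (-0.06) were put under another or a mixed place. Counted as mitochondrial, they would be members with a lower mean after injury.

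**Figure D2:**
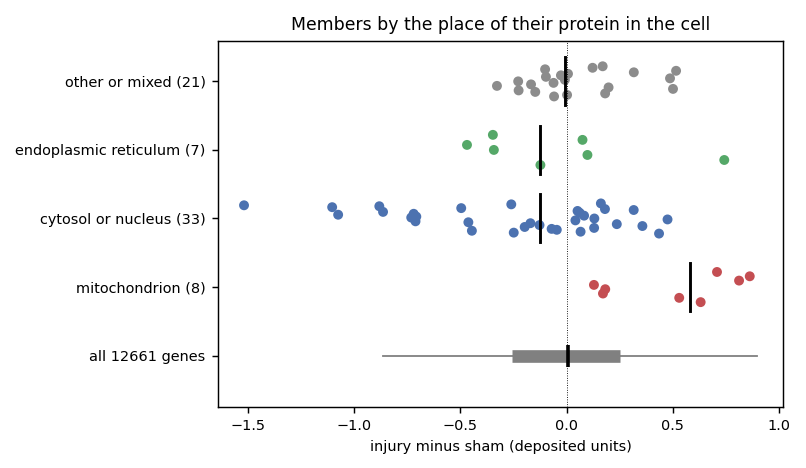
Each point is 1 member, placed by injury minus sham in deposited units and by where its protein works; black bars are medians, and the lowest line gives the quartiles (thick) and the 5th to 95th percentile (thin) of all 12661 genes. The 8 members placed in mitochondria lie between 0.13 and 0.86, whereas the other places reach both sides of 0.

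Brown adipocyte markers moved in the same direction as these genes. In all 10 measured, both injury libraries were above both sham libraries (100%, against 31.6% of all genes). Of these, limma called 7 higher (70%, against 3.76% of all genes), namely *Cidea*, *Cox8b*, *Cox7a1*, *Cpt1b*, *Kcnk3*, *Letmd1* and *Pank1*. The median difference of the 10 was 1.12. The mean level over the 10 was 0.52 and 1.08 in the sham libraries and 2.11 and 1.93 in the injury libraries, so sham replicate 1 was the lowest library for the markers as it was for *Hspd1*, *Hspe1* and *Hspa9*. In bulk tissue a change in the number of cells of a type and a change in RNA per cell cannot be told apart, and the part of the brown adipocyte signal in the result was not tested. Among 14 measured genes of mitochondrial protein quality control (nucleotide exchange, import and proteases), limma called 0, against 7.43% of all genes (6 at an unadjusted p-value under 0.05, against 29.5%), with 12 means higher and 2 lower and a median of 0.29. The highest was *Afg3l2*, a protease of the inner membrane, at 0.51, and the lowest was *Yme1l1*, another protease of that membrane, at -0.32.

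The small heat shock proteins stood at the lower end. *Hspb7*, a small heat shock protein of heart and muscle (ENSMUSG00000006221.7, chromosome 4, 140976694 to 140981226, plus strand), measured 0.80 and 0.78 in sham and -1.06 and -0.39 after injury. The injury libraries were far below the sham libraries, with a difference of -1.52 (SE 0.24, limma adjusted p = 0.032), the lowest among the 69. Without 1 library it ran from -1.85 to -1.18. *Hspb2*, a muscle member that binds the myotonic dystrophy kinase, measured 0.80 and -0.20 in sham and -0.99 and -0.62 after injury, a difference of -1.10 (SE 0.35, limma adjusted p = 0.109). Its 2 sham libraries were 1 unit apart, and it starts 404 bp from *Cryab*, the small heat shock gene encoded on the other strand, which measured 0.20 and -0.15 in sham and -1.10 and -0.55 after injury.

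*Hspb6* (HSP20), which is abundant in smooth muscle, measured 0.81 and 0.28 in sham and -0.52 and -0.14 after injury, a difference of -0.88 (SE 0.24, limma adjusted p = 0.0799). *Hspb1* (HSP25), the stress-inducible member that binds actin filaments, measured 1.05 and 0.62 in sham and 0.27 and 0.40 after injury. Its difference was -0.50 (SE 0.19, limma adjusted p = 0.155). *Hspb8* (HSP22), which works with BAG3 in the removal of damaged proteins, measured 0.32 and 0.06 in sham and -0.06 and -0.09 after injury, a difference of -0.26 (SE 0.15, limma adjusted p = 0.317). Without sham replicate 1 the differences were smaller, at -0.60 for *Hspb2*, -0.62 for *Hspb6*, -0.28 for *Hspb1* and -0.13 for *Hspb8*, and without sham replicate 2 the last was -0.39. In all 5 small heat shock genes each injury library was below each sham library, where 30.3% of all genes were lower without overlap. Of the 5, 1 was called, against 3.67% of all genes called lower, and their median was -0.88. *Hspbp1*, *Hspbap1* and *Hspb11*, whose symbols share the letters but whose products are not small heat shock proteins, had differences from -0.10 to 0.17.

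Smooth muscle markers moved in the same direction as the small heat shock genes. All 11 measured were lower after injury without overlap of the groups (100%, against 30.3% of all genes). Of these, limma called 6 lower (54.5%, against 3.67% of all genes), namely *Myh11*, *Acta2*, *Tagln*, *Cnn1*, *Cald1* and *Synpo2*. The median of the 11 was -2.12. Their mean level was 1.52 and 0.88 in sham and -1.11 and -0.18 after injury. The order of the 4 libraries was that of *Hspb1*, *Hspb2*, *Hspb6* and *Hspb7*: sham replicate 1 was highest and injury replicate 1 lowest. In *Hspb8* sham replicate 1 was also highest, but injury replicate 2 was lowest. Skeletal muscle markers had a median of -0.74 over the 7 measured, from -1.04 in *Mylpf* to 1.11 in *Pvalb*. Of the 7, limma called 0, against 7.43% of all genes (4 at an unadjusted p-value under 0.05, against 29.5%). Without sham replicate 1 the skeletal muscle median was -0.27. How far the muscle markers account for the small heat shock values was not tested.

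*Hspa12a* and *Hspa12b* encode atypical HSP70 proteins with a divergent ATPase domain, the second known from endothelium. *Hspa12a* (ENSMUSG00000025092.6, chromosome 19, 58870241 to 58935474, minus strand) measured 0.35 and 0.31 in sham and -0.41 and -0.39 after injury. The libraries of each group were within 0.04 of each other, and the difference was -0.73 (SE 0.13, limma adjusted p = 0.0388), between -0.75 and -0.71 without 1 library. *Hspa12b* measured 0.94 and 0.68 in sham and -0.08 and 0.28 after injury, a difference of -0.71 (limma adjusted p = 0.0787). All 12 endothelial markers had a lower mean after injury, 10 without overlap (83.3%, against 30.3% of all genes). Of these, limma called *Pecam1*, *Vwf* and *Erg* lower (25%, against 3.67% of all genes). The 12 markers had a median of -0.65 and mean levels of 0.57 and 0.62 in sham and -0.22 and -0.10 after injury. Their part in the 2 atypical HSP70 values was not tested.

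**Figure D3:**
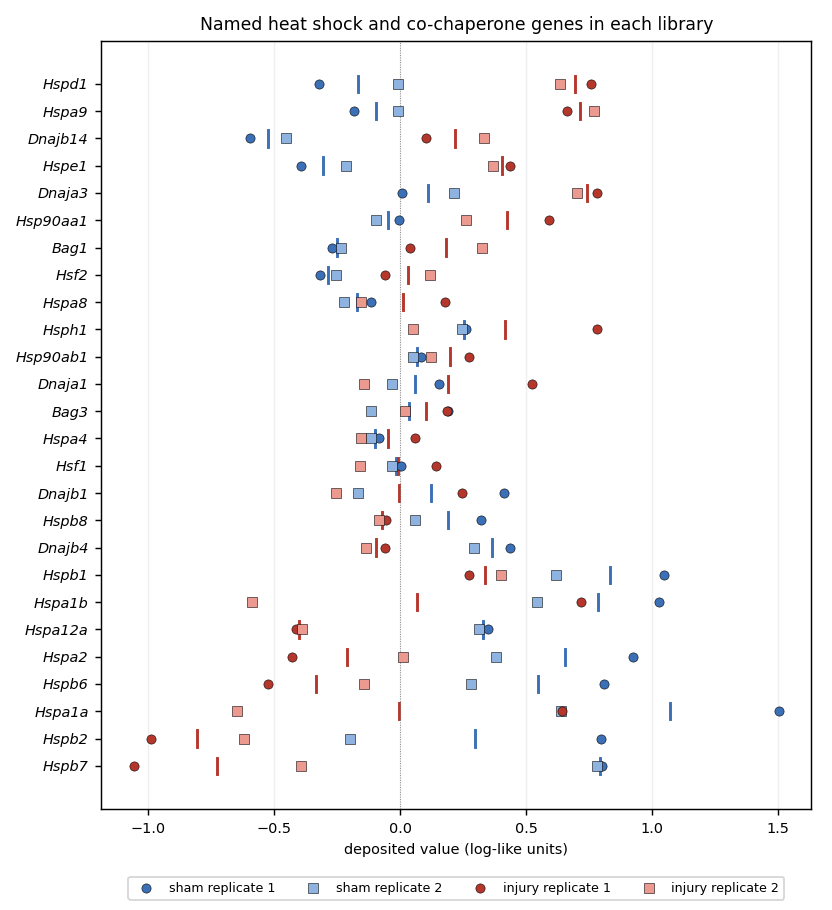
Each line is 1 of 26 named genes, ordered by injury minus sham, with the deposited value of each of the 4 libraries on the horizontal axis and short vertical bars at the group means (blue sham, red injury). At the top *Hspd1*, *Hspa9* and *Hspe1* have red symbols to the right of blue ones, at the bottom *Hspb7* has the reverse, and *Hspa1a* and *Hspa1b* have red symbols spread over more than 1 unit.

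None of the 9 genes counted as heat-inducible in the cytosol passed the test in the fit with group as the only term. Of the 9, limma called 0, where 7.43% of all genes were called, and 2 were at an unadjusted p-value under 0.05 (29.5% of all genes). Their median difference was 0.07, and in 7 the groups overlapped, so 22.2% were without overlap, against 61.9% of all genes. The median turned sign with single libraries, to -0.21 without injury replicate 1 and -0.09 without sham replicate 2, and was 0.17 without sham replicate 1. *Hspa1a*, an inducible HSP70, measured 1.50 and 0.64 in sham and 0.64 and -0.65 after injury. Sham replicate 2 and injury replicate 1 were alike, and the difference of -1.07 had a 95% interval from -2.29 to 0.15 (limma adjusted p = 0.212). *Hspa1b*, its near copy, measured 1.03 and 0.54 in sham and 0.72 and -0.59 after injury, a difference of -0.72 (95% interval -1.82 to 0.38, limma adjusted p = 0.336). For both, the 2 injury libraries lay 1.29 and 1.30 apart, more than the difference between the group means. With 1 library left out, the difference ran from -1.72 (without injury replicate 1) to -0.43 (without injury replicate 2) for *Hspa1a*, and from -1.37 to -0.07 for *Hspa1b* with the same 2 libraries left out.

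*Hsp90aa1*, the inducible HSP90, measured -0.003 and -0.09 in sham and 0.59 and 0.26 after injury, and its difference was 0.47 (95% interval 0.06 to 0.89, limma adjusted p = 0.134). *Hsp90ab1*, the constitutive HSP90, measured 0.08 and 0.05 in sham and 0.27 and 0.12 after injury, with a difference of 0.13 (95% interval -0.22 to 0.48, limma adjusted p = 0.575). Both HSP90 genes were higher in both injury libraries, by amounts that did not pass the test. With 1 library left out the difference ran from 0.31 (without injury replicate 1) to 0.64 for *Hsp90aa1*, and from 0.06 to 0.21 for *Hsp90ab1*. *Hspa8*, the constitutive HSP70, measured -0.12 and -0.22 in sham and 0.18 and -0.16 after injury (difference 0.18, 95% interval -0.24 to 0.60, and 0.01 without injury replicate 1). *Hsph1* (HSP105), an inducible HSP110, measured 0.26 and 0.25 in sham and 0.78 and 0.05 after injury (difference 0.16, 95% interval -0.48 to 0.80). Its injury libraries lay on either side of the sham pair.

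*Hspa4*, the constitutive HSP110, measured -0.08 and -0.12 in sham and 0.06 and -0.16 after injury (difference 0.05, 95% interval -0.31 to 0.42). *Hspa2*, an HSP70 best known from the testis, measured 0.93 and 0.38 in sham and -0.43 and 0.01 after injury. There the groups did not overlap, and the difference of -0.86 (SE 0.25) did not pass the threshold (limma adjusted p = 0.0921). The direction of *Hspa4* and *Hsph1* turned with 1 library: without injury replicate 1 the differences were -0.06 and -0.20. The intervals of *Hspa8*, *Hspa4* and *Hsp90ab1* leave room for changes of up to 0.60, 0.42 and 0.48 units upward.

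Within each group, the heat-inducible genes separated the libraries. In 8 of the 9, *Hspb1* being the exception, replicate 1 was above replicate 2 in the sham group and in the injury group. That share was 88.9%, against 24.2% of all genes and 36.2% of the 69 members (25 genes). The median gap over the 9 was 0.31 in sham and 0.50 after injury, beside 0.008 and -0.006 over all genes. The gap between the sham libraries was 0.86 for *Hspa1a* and 0.58 for *Dnajb1*. The numbers only name the libraries, and sham replicate 1 is not known to share an animal or a day with injury replicate 1. The pattern was noticed in these data and carries no test.

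**Figure D4:**
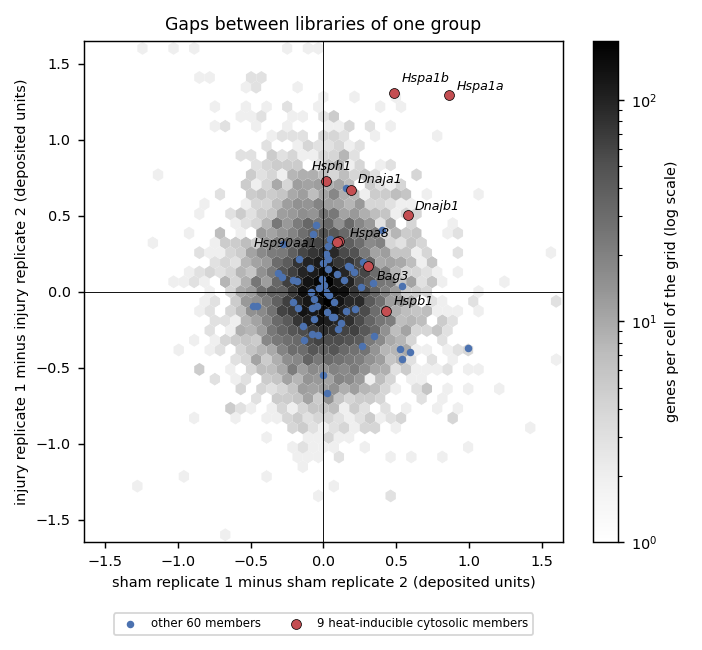
The horizontal axis is sham replicate 1 minus sham replicate 2 and the vertical axis injury replicate 1 minus injury replicate 2, in deposited units, with all genes as grey cells (values beyond the frame drawn at its edge) and the members as points. Of the 9 heat-inducible genes (red), 8 lie in the upper right field, with *Hspa1a* and *Hspa1b* farthest out.

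Of the 35 J-domain genes limma called 0, against 7.43% of all genes (9 at an unadjusted p-value under 0.05, against 29.5%). *Dnaja1* (HSP40 of type A), a partner of cytosolic HSP70, measured 0.16 and -0.03 in sham and 0.53 and -0.14 after injury, a difference of 0.13 (95% interval -0.49 to 0.75). *Dnajb1*, the inducible HSP40, measured 0.41 and -0.17 in sham and 0.25 and -0.26 after injury, a difference of -0.13 (95% interval -0.79 to 0.54). In both the groups overlapped, and the sign turned with 1 library: *Dnaja1* was at -0.21 without injury replicate 1, and *Dnajb1* was at 0.16 without sham replicate 1 and at 0.12 without injury replicate 2. *Dnajb4*, a close relative of *Dnajb1*, measured 0.44 and 0.29 in sham and -0.06 and -0.13 after injury, lower in both injury libraries by 0.46 on average (SE 0.14, limma adjusted p = 0.1). *Dnajb14*, anchored in the membrane of the endoplasmic reticulum, measured -0.59 and -0.45 in sham and 0.10 and 0.33 after injury. Its difference of 0.74 (SE 0.15) lay just outside the threshold, with a limma adjusted p of 0.05005 beside 0.0481 for *Hspe1* just inside it.

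The 4 DNAJA genes had a median difference of 0.24 (1 at an unadjusted p-value under 0.05), the 8 DNAJB genes -0.13 (3), and the 23 DNAJC genes -0.01 (5). The DNAJC differences ran from -0.47 to 0.53, and their groups did not overlap in 13 genes (56.5%, against 61.9% of all genes), 8 higher and 5 lower after injury. The highest of them was *Dnajc11*, a mitochondrial protein of the cristae, and the lowest *Dnajc16*, of the endoplasmic reticulum. In the 7 members of the endoplasmic reticulum the groups never overlapped, with 3 higher and 4 lower, where 61.9% of all genes did not overlap. limma called 0 of the 7, against 7.43% of all genes (3 at an unadjusted p-value under 0.05, against 29.5%).

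The BAG proteins, nucleotide exchange factors of HSP70, held no called gene among 6, where 7.43% of all genes were called by limma (1 at an unadjusted p-value under 0.05, against 29.5%), with a median of -0.06. *Bag1*, which links HSP70 to the proteasome, measured -0.27 and -0.23 in sham and 0.04 and 0.33 after injury, higher in both injury libraries by 0.43 on average (SE 0.16, limma adjusted p = 0.142). *Bag3*, an inducible member that directs clients to autophagy, measured 0.19 and -0.12 in sham and 0.19 and 0.02 after injury, a difference of 0.07 (95% interval -0.35 to 0.49). It turned to -0.09 without sham replicate 2 and to -0.02 without injury replicate 1.

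Among the heat shock factors limma called 0 of 3, against 7.43% of all genes (1 at an unadjusted p-value under 0.05, against 29.5%). *Hsf1*, the factor that drives the heat shock response, measured 0.002 and -0.03 in sham and 0.14 and -0.16 after injury. Its difference was 0.01 (95% interval -0.39 to 0.41), and it turned to -0.01 without sham replicate 2 and to -0.14 without injury replicate 1. The activity of HSF1 is set mainly on the protein, and its transcript does not measure it. *Hsf2*, a second factor of the family, measured -0.32 and -0.25 in sham and -0.06 and 0.12 after injury, a difference of 0.32 (SE 0.14, limma adjusted p = 0.21). *Hsf4*, the third, had a difference of 0.51 (limma adjusted p = 0.0851).

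Of the measured genes on 3 lists of chaperone partners and stress genes none was called, where over all genes 7.43% were called and 29.5% had an unadjusted p-value under 0.05. Of 26 measured genes on a list of HSP90 co-chaperones, which also holds *Hsp90b1* and *Trap1*, the HSP90 proteins of the endoplasmic reticulum and of mitochondria, limma called 0 (3 at an unadjusted p-value under 0.05), with 16 means higher and 10 lower, a median of 0.08 and extremes in *Chordc1* at 0.48 and *Unc45a* at -0.44. Of 15 measured subunits and helpers of the CCT chaperonin and of prefoldin, which fold actin and tubulin, it called 0 (1 at an unadjusted p-value under 0.05). There the median was -0.01, and the extremes were *Pfdn2* at 0.27 and *Pdcl3* at -0.48. Both medians lay near 0 and turned sign when 1 library was left out, to -0.006 without injury replicate 1 for the first list and to between 0.0098 and 0.0377 for the second. A list of 14 genes that stress can induce shares 7 with these 2 lists. Of the 7 that are on neither, it called 0 (3 at an unadjusted p-value under 0.05), with a median of 0.15 that was -0.24 without injury replicate 1. The highest was *Hmox1*, the haem-degrading enzyme of macrophages and stressed cells, which measured -0.44 and -0.85 in sham and 1.01 and -0.22 after injury, and the lowest was *Cryab* at -0.85.

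**Figure D5:**
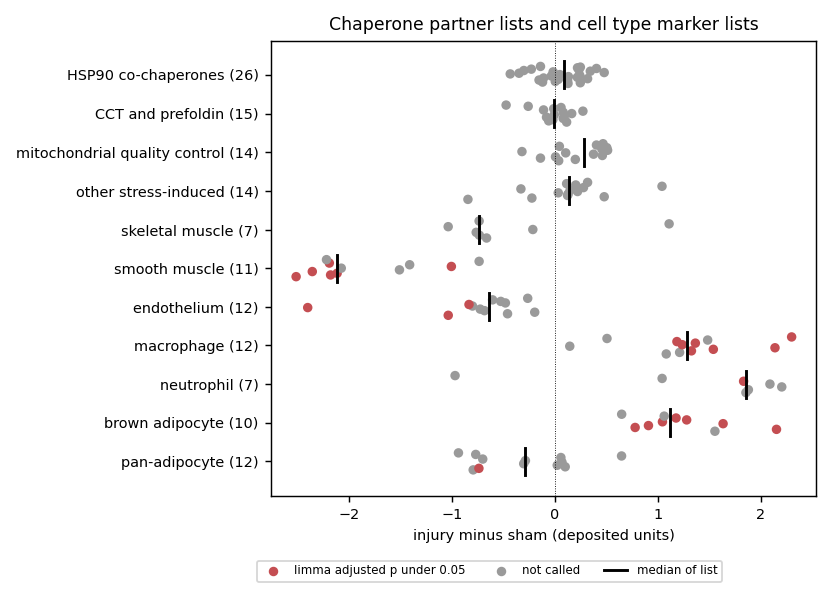
Each point is a gene of a list, placed by injury minus sham in deposited units, with the number of genes measured in brackets, red for a limma adjusted p-value under 0.05 and a black bar at the median. The 3 lists of chaperone partners and stress genes, which share genes, have medians between -0.01 and 0.14, the mitochondrial list 0.29, and the cell type lists spread from -2.12 for smooth muscle to 1.86 for neutrophils.

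Leukocyte and adipocyte markers are given because the tissue is mixed. All 12 macrophage markers had a higher mean after injury. Of these, limma called 7 higher (58.3%, against 3.76% of all genes), namely *Csf1r*, *Lyz2*, *Fcgr1*, *C1qa*, *C1qb*, *C1qc* and *Ccr2*. Their list had a median of 1.28 and mean levels of -1.08 and -1.08 in sham and 0.51 and -0.08 after injury. Of 7 measured neutrophil markers 6 means were higher and 1 lower. limma called *Retnlg* higher (14.3%, against 3.76% of all genes). The neutrophil median was 1.86, and 1.19 without injury replicate 1. *Lcn2* on that list had a difference of -0.97. Of 12 pan-adipocyte markers limma called 1 (*Plin1*, lower), a share of 8.33% near the 7.43% of all genes called. Among the 12, 5 means were higher and 7 lower, and the median was -0.30. Leaving out injury replicate 1 moved that median to -0.05, and leaving out injury replicate 2 moved it to -0.54. Injury replicate 1 was above injury replicate 2 for 8 of the 9 heat-inducible genes, 11 of the 12 macrophage markers, 7 of the 7 neutrophil markers, 3 of the 7 skeletal muscle markers and 0 of the 11 smooth muscle markers. Sham replicate 1 was above sham replicate 2 for 9 of the 9 heat-inducible genes, 6 of the 12 macrophage markers, 1 of the 7 neutrophil markers, 7 of the 7 skeletal muscle markers and 11 of the 11 smooth muscle markers. The part of these cell types in the heat-inducible values was not tested.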

How the data were processed

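RNA-seq libraries of 2 sham and 2 injury samples were analysed. Per the labels and the study's methods, the authors used FastQC 0.11.8 for read quality, cutadapt 1.18 and Trimmomatic 0.39 for trimming, STAR 2.6.0a for alignment to mm9, featureCounts for counting and DESeq2 1.28.0 in R 3.6.0 for testing. The deposited values are scores, signed and log-like, for 12661 genes; the step from counts to these scores is not given in the sources used here, and neither depth nor abundance is known. The values were therefore tested with limma 3.58.1 in R 4.3.3 (group as the only term, all 4 libraries, 3.48 prior degrees of freedom), with Benjamini-Hochberg adjustment over all genes. A filter on low values could not be run, as no abundance is given.

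Named genes were all called members, the 5 highest and 5 lowest differences and a core of 21 genes; from chaperone partner lists, the highest and lowest where none was called. The members and lists were chosen with earlier results of these data known, and the places in the cell and the heat-inducible genes with the values in view. Coordinates came from GENCODE on NCBIM37, which gave 1 gene for 68 of the 69 members; 28 members overlap another annotated gene. Promoter windows were read with Python 3.11.15, pandas 2.3.3 and numpy 2.4.6, and plots were drawn with matplotlib 3.10.9. The alternatives were a replicate block, each library left out, a threshold of 0.1, a robust variance prior, scaling of the columns to one spread, quantile normalization and identical values counted once.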

Additional observations from a re-analysis of the deposited data

How the results depend on the processing

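Calls among the 69 genes changed when 1 library was left out, in fits with fewer degrees of freedom. With each library left out in turn, the called number ran from 0 to 5 (higher 0 to 1, lower 0 to 4), the median difference from -0.0696 to 0.0586 and the number without overlap from 54 to 60 (78.3% to 87%, against 77.8% to 84% of all genes, since 1 library against 2 separates more easily by construction); the remaining library of a group was assumed to vary like the others. With a replicate block, limma called 2, of which 0 were higher and 2 lower (*Hspa1a*, adjusted p = 0.0462, over a range of 0.0462 to 0.219 in the fits on all libraries, and *Hspb7*), against 5.4% of all genes, and 1 of the 5 calls was kept. *Hspa9* (adjusted p = 0.0541, over a range of 0.0382 to 0.0541), *Hspd1* (0.0649, 0.0366 to 0.0649), *Hspa12a* (0.0649, 0.0359 to 0.0649) and *Hspe1* (0.0754, 0.0406 to 0.0754) were not called with the block. Over all genes, the deviations of sham replicate 1 and injury replicate 1 from their group means had a correlation of -0.094. With 2 libraries a group this cannot decide whether the numbers pair the samples. At an adjusted p-value under 0.1, 12 were called, 7 higher and 5 lower (17.4%, against 18.3% of all genes). Quantile normalization, scaling of the columns and identical values counted once gave 6 each (8.7%, against 8.38%, 8.59% and 7.47% of all genes), adding *Dnajb14*, and the robust prior gave 5 (7.25%, against 6.8%). Of 156 values of the 26 named genes in fits on all libraries, 142 kept direction and side of the threshold, 4 lost and 8 gained a call, and 2 turned sign, both in *Hsf1* (-0.0000031 with quantile normalization and -0.0014 with scaled columns). With 1 library left out, 79 of 104 values kept both, 16 lost a call, and 6 genes turned sign: *Dnajb1* ran from -0.42 to 0.16, *Bag3* from -0.0871 to 0.22, *Hsf1* from -0.14 to 0.16, *Dnaja1* from -0.21 to 0.46, *Hspa4* from -0.0562 to 0.16 and *Hsph1* from -0.20 to 0.53. The cause was not tested. Depth is unknown, so no detection limit can be given.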
